A study of Mus musculus with 6 samples.

Results

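Loss of the formin gene Diap1 was examined in the Gr1+Mac1+ fraction of mouse bone marrow by comparing the knockout (KO) library with the wild-type (WT) library over every gene locus that both deposited tables give with the status OK. These were 23449 of 23746 loci. The other 297 had another status in at least 1 of the tables, LOWDATA at 282 and FAIL at 15. All mice were C57BL/6 animals of 12 weeks. The WT mice carried both copies of Diap1, the Het mice were Diap1 +/- and the KO mice had no intact copy. The labels do not state which part of the gene was removed, whether the deletion was limited to a cell type, or the sex of the mice. For each genotype, marrow of 4 mice was pooled. Cells positive for Gr1 and Mac1 were captured on magnetic beads, and progenitors (Lin-) were then obtained from what was left by negative selection. Each of the 3 genotypes therefore gave 1 Gr1+Mac1+ and 1 Lin- library, with no replicate in any group. All values below are effect sizes between single libraries, and no test between genotypes was possible. Within a fraction, Het and KO are set beside the same WT library, so their differences from WT are not independent.

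Diap1 is the symbol in the files for the gene of mDia1, a formin that nucleates and elongates straight actin filaments. Gr1 is an epitope of the Ly6 proteins of granulocytes and monocytes, and Mac1 is the integrin formed by Itgam and Itgb2, so the fraction is dominated by maturing neutrophils, which fill their granules in a fixed order, and by monocytes. Red cell precursors mature in the same marrow on the surface of a central macrophage, in units called erythroblastic islands. Their program is run by Gata1, Tal1 and Klf1, which bind GATA and CACCC-like sequences near globin, heme and membrane genes.

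Expression is given as FPKM, the number of fragments scaled to transcript length and to the size of the library. The authors' tables give a lower and an upper bound for each FPKM, read here as 2 counting standard deviations from it. The bounds do not cover differences among mice. The implied depth was 11600000 fragments for WT and 8630000 for KO Gr1+Mac1+ cells, and between 9420000 and 10390000 for the other 4 libraries. An FPKM of at least 1 was reached by 11270 loci in WT and 11227 in KO. The labelled cell type was matched by its markers. S100a8 stood at 50656 in WT and 61412 in KO, and Itgam, the alpha chain of Mac1, at 293 in each. Of 11 granulocyte markers 10 were found in the tables, and their lowest level was 110 in WT and 105 in KO. The Ly6g symbol was not matched. Markers of other cells were also present, and none of them was at 0 in WT or KO: in WT, 8 genes of red cell precursors summed to an FPKM of 452, 5 of the B lineage to 243, 8 of tissue macrophages to 110, and 5 of T and NK cells to 17.1.

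Few genes differed in size between the KO and WT libraries, and the lower ones included many genes of red cell formation. Log2 ratios are of KO over WT after adding 1 to each FPKM. Among the 11244 loci measured, with a mean FPKM of at least 1 over both libraries, the middle 90% of log2 ratios ran from -0.37 to 0.32, around a median of 0.01. A locus was called higher or lower when it differed at least 1.5-fold, reached an FPKM of 5 in the higher library and had intervals that did not overlap. By this rule 29 loci were higher in KO (0.258% of those measured) and 87 were lower (0.774%). At 2-fold, 5 were higher (0.0445%) and 11 lower (0.0978%). Of the 87 lower loci, 39 were on the lists of erythroid genes described below, 6 on other lists and 42 on none. Those erythroid lists held 91 of all 11244 measured loci. None of the 29 higher loci was on an erythroid list. All lists were drawn up with earlier results of these data known, so list counts and medians describe the data only.

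**Figure D1:**
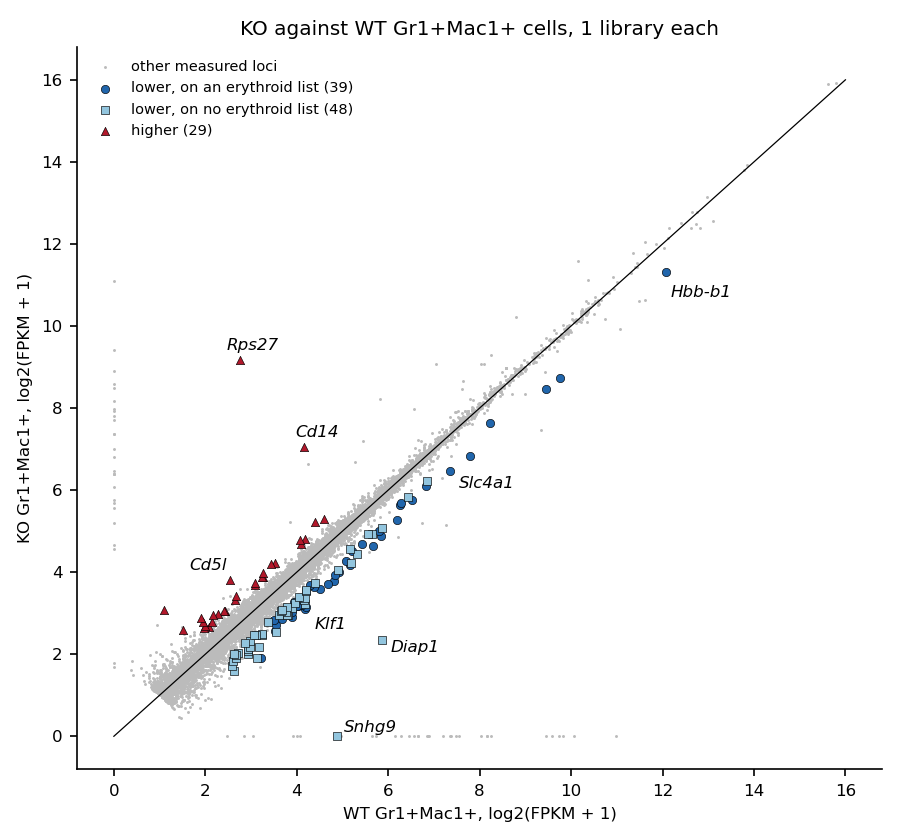
Expression of the 11244 measured loci in the WT library (horizontal axis) and the KO library (vertical axis) of Gr1+Mac1+ cells, both as log2(FPKM + 1), with the line of equal levels. Circles are the 39 lower loci on erythroid lists, squares the 48 other lower loci and triangles the 29 higher loci. Circles lie below the line at low levels, as Klf1, and at high levels, as Hbb-b1, and Rps27 and Cd14 lie farthest above the line. Small dots on the axes are loci listed at 0 in 1 library.

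Diap1 (chr18:37844825-37935411, mm10) was the deleted gene and the most reduced locus other than Snhg9. Gr1+Mac1+ cells held it at an FPKM of 57.1 (WT), 34.1 (Het) and 4.07 (KO), so KO had 7.13% of the WT level (log2 ratio -3.52, counting SE 0.09). The 3 intervals did not overlap, and the order followed the number of intact copies. Which exons gave the remaining KO signal was not analysed here.

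No other formin was called, nor any gene on the lists of the actin machinery. Outside these lists, Spire1, an actin nucleator, was called lower (6.30 to 3.83, -0.60). Myl4, a myosin light chain, was called higher (9.84 to 17.5, 0.77). Of 10 formins measured, Diap1 included, 8 were lower, 4 of them with intervals apart (5.55% of all measured loci). The 2 others were higher, with overlapping intervals. Fmnl1, a formin of blood cells and the most abundant of the family, stood at 142 in WT and 138 in KO. The other diaphanous formins were at 11.5 and 8.90 (Diap3, log2 ratio -0.33) and at 7.07 and 6.58 (Diap2, -0.09). Fhdc1 had the largest difference after Diap1, from 3.65 to 1.83 (-0.72), below the level that a call requires. No formin was called higher. Among the other actin regulators, none of 22 genes of the branching Arp2/3 complex and its activators was called (median 0.06) and none of 21 cytoskeletal targets of SRF, a factor that responds to free actin (0.04). Arpc5, a subunit of Arp2/3, went from 251 in WT to 277 in KO, and Actb, the main actin, at 3248 and 3482. Itgam and the other 19 leukocyte integrins and chemoattractant receptors measured had a median of 0.05 and no call. The largest negative value among these 3 lists belonged to a gene of low level, Cttn (2.08 in WT, 0.969 in KO), which was more abundant in the Lin- libraries.

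Cd14 (chr18:36725067-36726654), the surface receptor that hands bacterial lipopolysaccharide (LPS) to TLR4, had the highest ratio after Rps27, a locus with near-identical copies. The WT library held it at 16.9 (interval 15.1 to 18.8), Het at 71.4 and KO at 132 (126 to 138), a log2 ratio of 2.89 (counting SE 0.08) for KO over WT. Het lay between the others, and no intervals overlapped. The Lin- libraries gave 0.284 for WT, 1.95 for Het and 2.37 for KO.

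The rest of the LPS pathway did not follow Cd14. Tlr4 went from 6.38 in WT to 6.72 in KO. Its partner Ly96 (MD-2) was at 8.29 and 11.03 with overlapping intervals (log2 ratio 0.37), and the adaptor Myd88 at 52.0 and 52.9. Of 30 genes of LPS and Toll-like receptor signalling measured, Cd14 was the only call, and the median was 0.03. Tlr9, a receptor for unmethylated DNA, had the lowest value, from 7.72 to 5.42 (-0.44). Downstream, Ptgs2, the inducible cyclooxygenase, was the only call among 25 NF-kB targets and inflammatory mediators (median 0.03). It stood at 7.51 in WT, 10.3 in Het and 11.95 in KO (0.61). Of 26 monocyte genes 12 were higher and 14 lower, with no call and a median of -0.00. None had an interval clear of WT on the higher side (5.28% of all measured loci did), and 5 had one on the lower side (5.55% of all measured loci), among them F13a1, a coagulation factor chain, from 154 to 133 (-0.22). The monocyte markers Csf1r (69.5 in WT, 69.3 in KO) and Ly6c2 (1217 and 1267) were nearly equal while Cd14 differed 7.80-fold.

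Cd14 and Diap1 lie on the same chromosome. Within 2 Mb of Diap1 on either side the tables hold 103 loci, of which 29 were measured. Cd14 was the only one called apart from Diap1, and the other 28 had a median of 0.03. Of these 28, 5 had a log2 ratio of at least 0.3 in size.

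The list of erythroid transcription factors, which also holds the receptor Epor, gave the clearest set of lower genes among regulators. Of 14 members measured, 12 were lower and 5 were called, Epor among them. The median was -0.31. Of all measured loci, 48.1% were lower and 0.774% were called lower. Klf1 (chr8:84901928-84905295), the CACCC-binding factor that switches on adult beta globin, stood at 17.2 in WT (interval 15.4 to 19.1), 11.8 in Het and 7.61 in KO (6.19 to 9.03), a log2 ratio of -1.08 (counting SE 0.14). Gata1, the master regulator of the lineage, stood at 19.9, 13.5 and 11.4 in the same order (-0.75), and Tal1 at 11.9, 8.91 and 6.23 (-0.83). In all 3 the KO library was lowest and its interval lay apart from that of WT. Epor, the erythropoietin receptor, went from 10.7 to 5.53 (-0.84), and Zfpm1, the GATA1 cofactor FOG1, at 12.5 and 7.41 (-0.68). Other members of the list were closer to WT, among them Nfe2 at 125 and 128, Ldb1 at 48.3 and 45.3, and Lmo2 at 74.1 and 64.6. In marrow of mixed cells, fewer cells of a type and less RNA in each such cell cannot be told apart, and this applies to every erythroid and macrophage gene here.

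To show what these members carry at their start sites, the promoter windows (250 bases before to 50 after the start, RefSeq, GRCm38.p6, the mm10 assembly) of 3 erythroid genes that were at least 2-fold lower are printed below, with 2 motifs in capitals. The first motif searched for, on both strands, was GATAA, the core that GATA factors read. The other, also on both strands, was CACCC, the core of the sites that Klf1 reads. A match on the opposite strand appears as the reverse complement of its motif.
Klf1 (chr8:84901732-84902031, + strand): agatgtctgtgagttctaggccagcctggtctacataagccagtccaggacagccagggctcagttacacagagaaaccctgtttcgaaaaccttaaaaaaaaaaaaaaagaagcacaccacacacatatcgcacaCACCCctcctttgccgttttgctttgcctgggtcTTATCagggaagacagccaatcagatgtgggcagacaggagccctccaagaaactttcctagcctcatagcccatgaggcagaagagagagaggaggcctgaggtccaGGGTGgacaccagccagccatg
Rhag (chr17:40810899-40811198, + strand): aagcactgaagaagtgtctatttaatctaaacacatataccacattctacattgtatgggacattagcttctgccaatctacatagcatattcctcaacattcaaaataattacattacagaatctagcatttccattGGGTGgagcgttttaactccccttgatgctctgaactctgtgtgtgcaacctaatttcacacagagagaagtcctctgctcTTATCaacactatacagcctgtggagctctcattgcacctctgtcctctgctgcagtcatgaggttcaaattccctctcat
Ces2g (chr8:104961468-104961767, + strand): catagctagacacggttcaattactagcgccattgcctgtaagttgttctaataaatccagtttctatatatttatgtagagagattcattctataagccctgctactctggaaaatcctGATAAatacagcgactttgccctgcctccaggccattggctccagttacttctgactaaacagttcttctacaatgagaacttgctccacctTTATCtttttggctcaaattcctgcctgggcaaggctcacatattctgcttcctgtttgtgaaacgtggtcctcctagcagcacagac

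Klf1 held 1 GATAA and 2 CACCC matches, Rhag 1 of each, and Ces2g 2 GATAA matches and no CACCC match. The window of Hbq1b, also at least 2-fold lower, held neither, which says only that these letters are not in those 300 bases. The table had a window for 66 of 89 measured erythroid symbols. GATAA, on either strand, was in 28 of them (42.4%), against 19.6% of the windows of all measured genes and 28.4% of all 27025 windows. CACCC was in 53 (80.3%), against 65.5% and 59.8%, and both were in 23 (34.8%), against 11.4% and 14.3%. Among the 27 windows of called erythroid genes the shares were 51.9%, 81.5% and 40.7%. A match of 1 motif can share a base with the other, and a match is a description of the letters, not a bound site.

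Genes of the red cell membrane and its spectrin skeleton were lower without exception. The median was -0.72. All 26 measured members were below WT and 16 were called (48.1% and 0.774% of all measured loci). Intervals clear of WT on the lower side were found for 22 of them, against 5.55% of all measured loci. Slc4a1 (band 3), the anion exchanger that anchors the skeleton, stood at 162 in WT, 118 in Het and 87.0 in KO (-0.89). Rhag (chr17:40811149-40840754), the Rh-associated glycoprotein, stood at 27.2, 14.2 and 12.7 in the same order (-1.04), and its partner Rhd at 72.3, 42.2 and 37.7. For these genes the KO and WT intervals lay apart, and the Het value lay nearer to KO than to WT. The skeleton genes followed with similar ratios: Spna1 and Spnb1, the spectrin chains, at -0.85 and -0.92, Ank1, which ties spectrin to band 3, at -0.86, and Add2, an adducin that caps actin at the junctions, at -0.98. Cldn13, a claudin of mouse red cell precursors, went from 49.5 to 23.9 (-1.02), and Aqp1, a water channel, from 90.3 to 53.6 (-0.74). The abundant members Stom (77.9 and 72.7), Mpp1 (54.7 and 50.7) and Add1 (72.9 and 65.0) were among those closer to WT.

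Heme synthesis was lower along most of its steps. Of 20 genes measured 17 were lower and 5 were called (48.1% and 0.774% of all measured loci), with a median of -0.46. In the order of the pathway, the erythroid first enzyme Alas2 went from 124 through 94.5 in Het to 90.3 (-0.45), Alad at 42.2 and 24.7 in WT and KO (-0.75) and Uros at 16.95 and 11.01 (-0.58). Urod followed at 77.2 and 50.8 (-0.59), Cpox at 32.8 and 18.3 (-0.81), Ppox at 45.4 and 38.98 (-0.22) and Fech, which inserts the iron, at 42.8 and 28.4 (-0.58). Each of these steps was lower, and Alad, Urod and Cpox passed the rule, as did Blvrb, a biliverdin reductase, from 75.96 to 48.7 (-0.63). The 3 members above WT included Alas1, the housekeeping first enzyme, at 53.7 and 63.0 (0.23), and Hmox1, which breaks heme down in macrophages, at 46.3 and 60.1 (0.37). Among 13 iron genes the median was 0.02. Tfr2, a transferrin receptor of erythroblasts and liver, was called lower (6.91 to 3.53, -0.81), and Hfe, which regulates hepcidin and iron uptake, was called higher (7.44 to 12.2, 0.65).

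Globin transcripts were very abundant in this fraction and differed less than the membrane genes when summed. The 4 loci of alpha globin together gave an FPKM of 14667 (WT), 11845 (Het) and 11882 (KO), which is 81.0% of WT for KO. The 3 adult loci of beta globin summed to 13443, 9739 and 10258, which is 76.3%. Single loci are uncertain, since near-identical copies share fragments: Hbb-b1 went from 4311 to 2527 (-0.77, called), while Hbb-b2 went from 1919 to 2332 (0.28), with a Het value of 506. The Hba-a2 loci were called lower at -1.03 (866 to 423) and -0.99, and Hba-a1 stood at -0.24 at each of its loci. Over the 9 globin loci measured 8 were lower and 4 were called (48.1% and 0.774% of all measured loci), with a median of -0.77.

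The enzymes and late genes of the red cell were lower in 21 of 22 cases, with 9 calls and a median of -0.53. Of all measured loci, 48.1% were lower and 0.774% called lower. Car2, the main carbonic anhydrase of red cells, stood at 219 in WT, 140 in Het and 114 in KO (-0.94). Prdx2, a peroxiredoxin that protects hemoglobin, stood at 297, 217 and 198 (-0.59). Hemgn (34.9 to 17.2), a nuclear factor of erythroblasts, had a ratio of -0.98 and Pklr (10.5 to 4.87), the red cell pyruvate kinase, one of -0.97. Ces2g, a carboxylesterase, went from 17.4 to 7.92 (-1.04). The members closest to WT were Bpgm, which makes 2,3-bisphosphoglycerate, at 37.5 and 36.4, the ubiquitin ligase Mkrn1 at 59.6 and 57.2, and Bnip3l, which clears mitochondria from reticulocytes, at 56.5 and 60.7 (0.10).

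**Figure D2:**
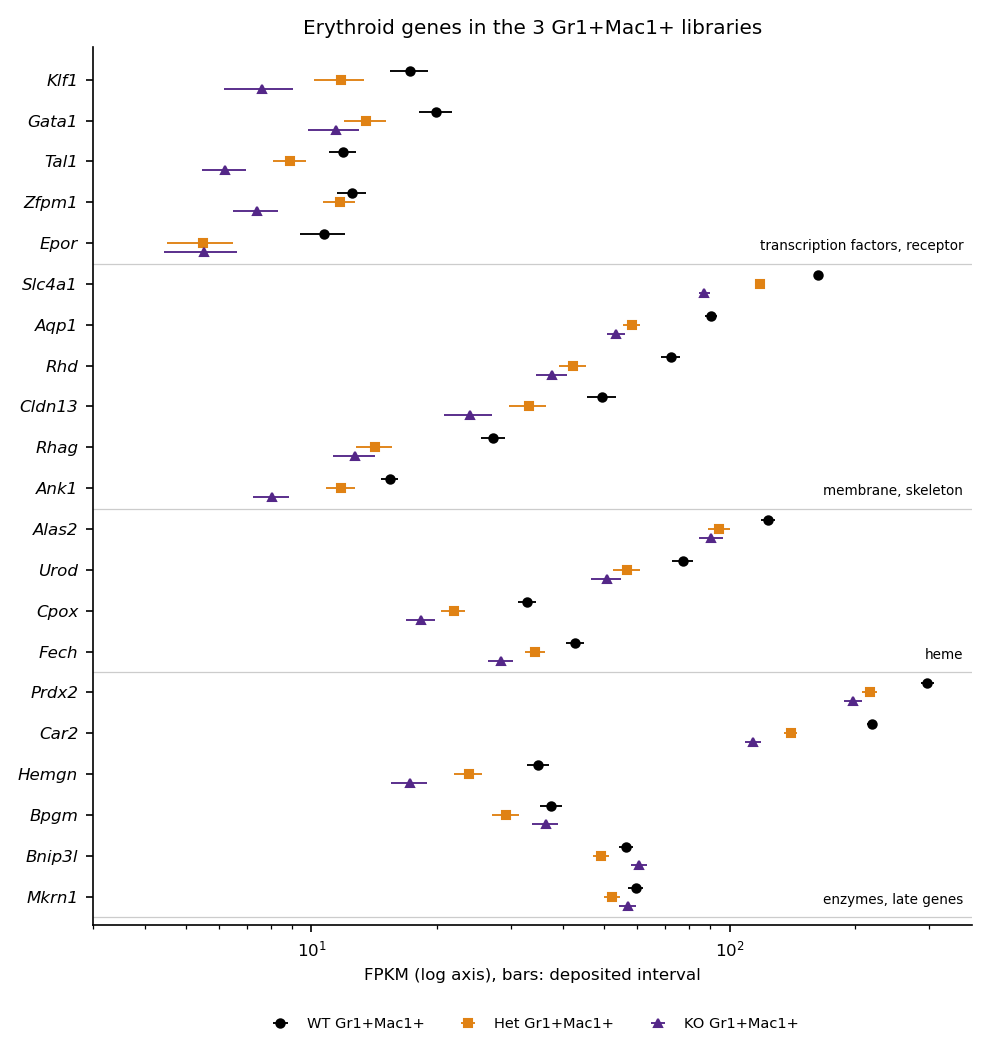
FPKM (horizontal log axis) of 21 erythroid genes in the WT (circles), Het (squares) and KO (triangles) Gr1+Mac1+ libraries, with bars for the deposited intervals, grouped by role. WT is the highest of the 3 in all but Bnip3l. KO is clear of WT in most rows, as for Klf1 (17.2 and 7.61) and Slc4a1 (162 and 87.0), and overlaps it for Bpgm and Mkrn1.

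As a class, the erythroid genes more abundant in progenitors than in the Gr1+Mac1+ fraction had the lowest median, although the lowest single locus, Hbq1b (-1.31), was not among them. The Het libraries, which the KO to WT ratio does not use, served to sort the 91 measured erythroid loci by where they were expressed. Of 51 loci at least 2-fold higher in Het Lin- than in Het Gr1+Mac1+ cells, all 51 were lower in KO, 31 were called and the median was -0.70. The 27 loci less than 2-fold apart had a median of -0.25 with 5 calls. The 13 loci at least 2-fold higher in Het Gr1+Mac1+ cells, among them most globins, had a median of -0.24 with 3 calls. The Het Lin- library also held granulocyte RNA, with a marker sum of 7701 against 284 in WT and 320 in KO Lin- cells, so its level of granulocyte genes stands apart from the other Lin- libraries. The 8 markers of red cell precursors were all lower in KO and 7 were called (48.1% and 0.774% of all measured loci). Their sum went from 452 to 260 (57.5% of WT), with a Het sum of 310. How far the number of red cell precursors in the fraction set these values was not tested.

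Over all called genes the lower ones also leaned toward the progenitor fraction. Of the 87 lower loci, 66 (75.9%) were at least 2-fold higher in Het Lin- than in Het Gr1+Mac1+ cells, against 22.1% of all measured loci. Among those on no list were Samd14 (7.97 to 3.56, -0.98), Slc38a5 (17.1 to 8.32, -0.96), a glutamine transporter, Cox6b2 (35.4 to 17.6, -0.97) and Pla2g12a (10.7 to 4.81, -1.01), a secreted phospholipase. Lax1, an adaptor of lymphocyte receptors, was an exception, at 5.17 in WT and 2.03 in KO (-1.02) with 1.20 in Het Lin- cells. Of the 29 higher loci, 13 (44.8%) were at least 2-fold higher in Het Gr1+Mac1+ than in Het Lin- cells, against 18.7% of all measured loci.

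In the Lin- libraries of the same pools the erythroid loci did not repeat these values. Between KO and WT Lin- cells 49 loci were called higher (0.452% of 10833 measured) and 36 lower (0.332%). The 91 erythroid loci had a median of 0.10 there, with 14 calls, all higher. Gata1 stood at 122 in WT and 124 in KO Lin- cells, Klf1 at 112 and 110, and Epor at 66.9 and 62.2. The globin sums were higher instead, with alpha globin at 2641 in WT and 5556 in KO (210%) and beta globin at 2012 and 4555 (226%). Of the 87 loci lower in Gr1+Mac1+ cells, Diap1 and Igj were also lower in Lin- cells by the rule, and Epb4.2, H2-Q7, both Hba-a2 loci and Hbb-b1 were higher.

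**Figure D3:**
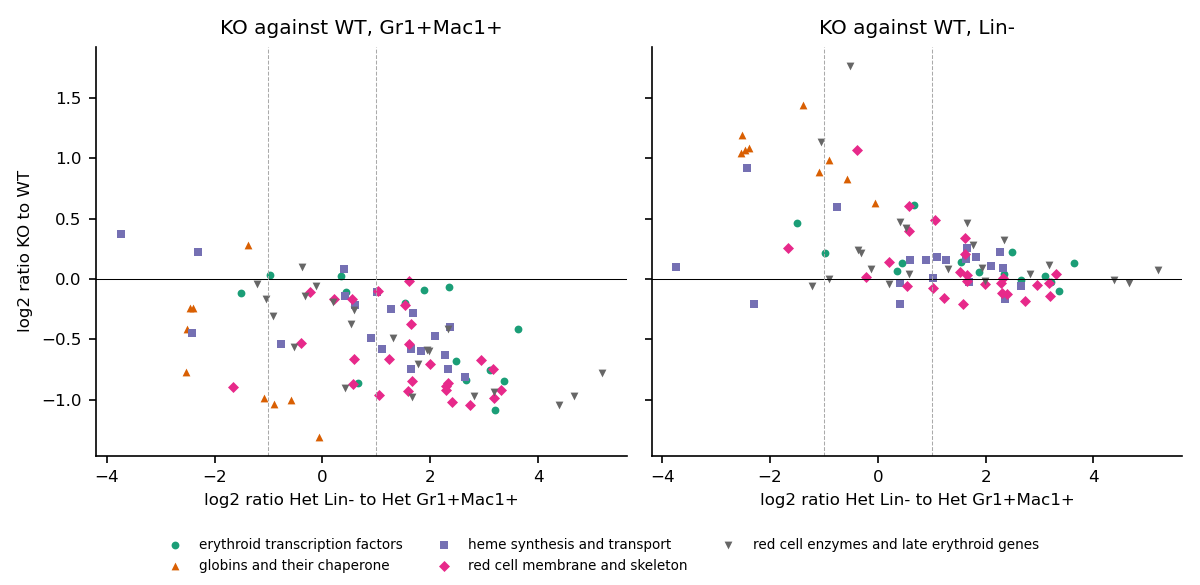
Log2 ratio of KO to WT of the 91 erythroid loci in Gr1+Mac1+ cells (left) and in Lin- cells (right), against the log2 ratio of Het Lin- to Het Gr1+Mac1+ cells, with 1 symbol per list and dashed lines at 2-fold. On the left, all 51 loci to the right of the right-hand dashed line lie below 0 (median -0.70). In the right panel the same loci lie around 0 and the globins, at the left, above it.

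Genes of tissue macrophages held the most calls of any list on the higher side, 4 of 29, although the medians of the small stromal and sex-linked lists were higher. Of 19 measured members of the list of erythroblastic island and tissue macrophage genes, 17 were higher, 10 had intervals clear of WT (5.28% of all measured loci did so on the higher side) and 4 were called, with a median of 0.37, where 51.9% of all measured loci were higher. Another 4 were below the measured level and Axl lacked the status OK. Hmox1 and Slc40a1 count here and on the heme or iron list. Cd5l (chr3:87357881-87371074), a scavenger receptor family protein secreted by macrophages, stood at 4.81 in WT, 7.73 in Het and 12.9 in KO, a log2 ratio of 1.26 (counting SE 0.13). The 3 intervals were separate, with KO highest. C1qc, a chain of complement C1q, stood at 19.996, 27.4 and 36.2 in the same order (0.83), and its neighbours C1qa and C1qb had ratios of 0.43 and 0.51. Spic, the factor that specifies iron-recycling macrophages, stood at 2.996 in WT, 2.91 in Het and 5.39 in KO (0.68), so its Het value was not intermediate. Fcna, a ficolin, stood at 17.1, 24.9 and 27.1 in the same order (0.63). These 6 genes were rare in Lin- cells, with at most 2.16 in any Lin- library.

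Vcam1, the adhesion molecule that holds erythroblasts to the central macrophage, went from 30.2 in WT to 40.3 in KO (0.40) with separate intervals, and was 29.4 in Het. The mannose receptor Mrc1 went from 5.48 to 7.94 (0.46) and Mertk, a receptor for dying cells, from 1.16 to 1.89 (0.42). Emr1 (F4/80) was at 26.3 and 28.2, and Slc11a1 (NRAMP1) at 29.0 in each. All 8 macrophage markers were higher, 2 of them called, and their sum went from 110 in WT through 134 in Het to 166 in KO. It moved in the opposite direction to that of the red cell precursors, and its part in the Cd14 difference was not tested.

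**Figure D4:**
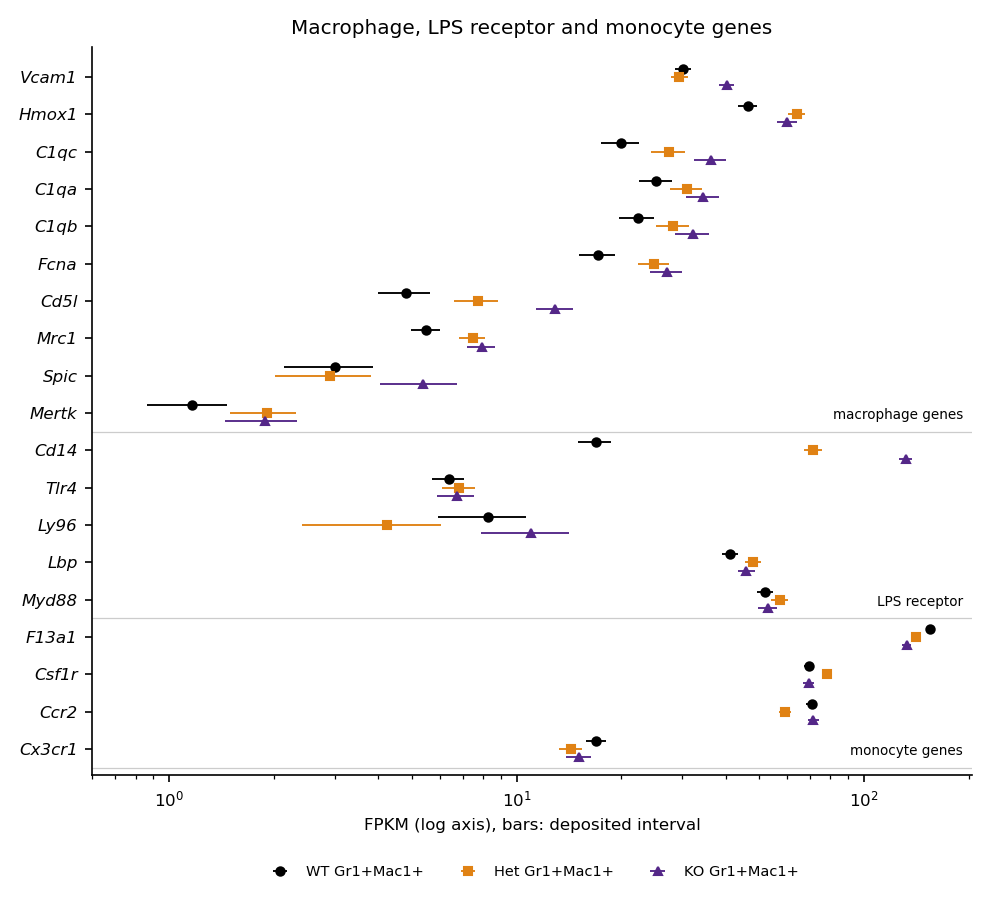
FPKM (horizontal log axis) of 10 macrophage genes, 5 genes of the LPS receptor and 4 monocyte genes in the WT (circles), Het (squares) and KO (triangles) Gr1+Mac1+ libraries, with bars for the deposited intervals. KO is above WT in each macrophage row, with Cd5l at 4.81 and 12.9. Cd14 runs from 16.9 to 132, while Tlr4, Myd88 and Csf1r overlap between WT and KO.

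Granule genes were slightly higher in KO. Of 11 proteins of the primary granules, which promyelocytes make, 10 were higher in KO with intervals apart. None was called, and the median was 0.23. Of all measured loci, 5.28% were higher with intervals apart. Intervals are narrow relative to the level at abundant genes, so small ratios there can leave them apart. Mpo, the myeloperoxidase, went from 1286 in WT to 1549 in KO (0.27), and Elane, the neutrophil elastase, at 1045 and 1283 (0.30). Prtn3, proteinase 3, was at 729 and 805 (0.14). Secondary and tertiary granule proteins, made later, had a median of 0.08 over 22 genes. Of these, 14 were higher and 1 lower with intervals apart. Ngp was at 14655 and 15593, Camp at 7978 and 8987, and Ltf, lactoferrin, at 3710 and 4064. Of 29 mature neutrophil genes 22 were higher, 10 with intervals apart, with a median of 0.07. The 8 subunits of the NADPH oxidase, which makes the respiratory burst, lay between -0.01 and 0.15, and 6 were higher with intervals apart. None of these 4 lists held a call. Among 19 transcription factors of granulocytes and monocytes the median was 0.09, and Cebpe, which drives late granule genes, went from 101 to 125 (0.30).

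Lists of other cell types held between 0 and 2 called genes each. Eosinophil, basophil and mast cell genes had a median of 0.25 over 19 members, 15 of them higher and none called. With intervals apart, 9 were higher (5.28% of all measured loci) and 1 was lower (5.55%). Prg2, the eosinophil major basic protein, went from 4550 to 5399 (0.25), and Mcpt8, a basophil protease, from 177 to 239 (0.43). Stromal genes had a median of 0.44 over 9 measured members and 2 calls, Col1a1 (4.42 to 7.25, 0.61) and Col1a2 (3.45 to 5.88, 0.63), the chains of type I collagen. Both were higher still in Het, at 9.87 and 7.82, and another 15 members were below the measured level. In the 23 B lineage genes the median was -0.00, and Igj, the joining chain of plasma cells (46.2 to 29.7, -0.62), and Fcer2a, CD23 of mature B cells (11.2 to 6.78, -0.65), were called lower. The B cell markers together were near equal, with Cd79a at 84.1 and 96.1. H2-Eb1, a chain of MHC class II, was called lower (85.8 to 56.2, -0.60), and H2-Aa, another chain, was just outside the rule (166 to 113, -0.55). Over the 17 genes of class II and dendritic cells the median was -0.10. Of these, 11 were lower, 7 with intervals apart (5.55% of all measured loci), and 1 was higher with intervals apart. The medians were 0.10 over 25 T and NK cell genes, -0.05 over 16 megakaryocyte genes and 0.07 over 14 stem and progenitor genes, with no call in these lists.

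Proliferation, stress and metabolic genes held few calls. The medians were -0.07 over 34 DNA replication genes, 27 of them lower, and -0.05 over 32 mitosis genes, 22 of them lower, with no call in either. Intervals lay apart on the lower side for 7 replication and 5 mitosis genes (5.55% of all measured loci), and for none on the higher side. Medians were 0.08 over 30 interferon response genes, -0.07 over 18 immediate-early genes and 0.04 over 22 apoptosis and p53 target genes. These lists held no call either. Of the 18 immediate-early genes, 13 were lower, 8 with intervals apart (5.55% of all measured loci), and 5 were higher, none with intervals apart. In Het against WT, 17 of these 18 were higher. Of 19 glycolysis genes 17 were higher (median 0.12). With intervals apart, 8 were higher (5.28% of all measured loci) and 2 lower (5.55%). Pfkm, the muscle type phosphofructokinase, which red cells also use, was called lower (7.66 to 4.57, -0.64). Dnajc12, a co-chaperone, was the only call among 17 heat shock genes (1.85 to 5.03, 1.08), whose median was 0.04. Stard4, a cholesterol carrier, was the only call among 20 genes of cholesterol synthesis (5.41 to 9.69, 0.74), with a median of -0.01.

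**Figure D5:**
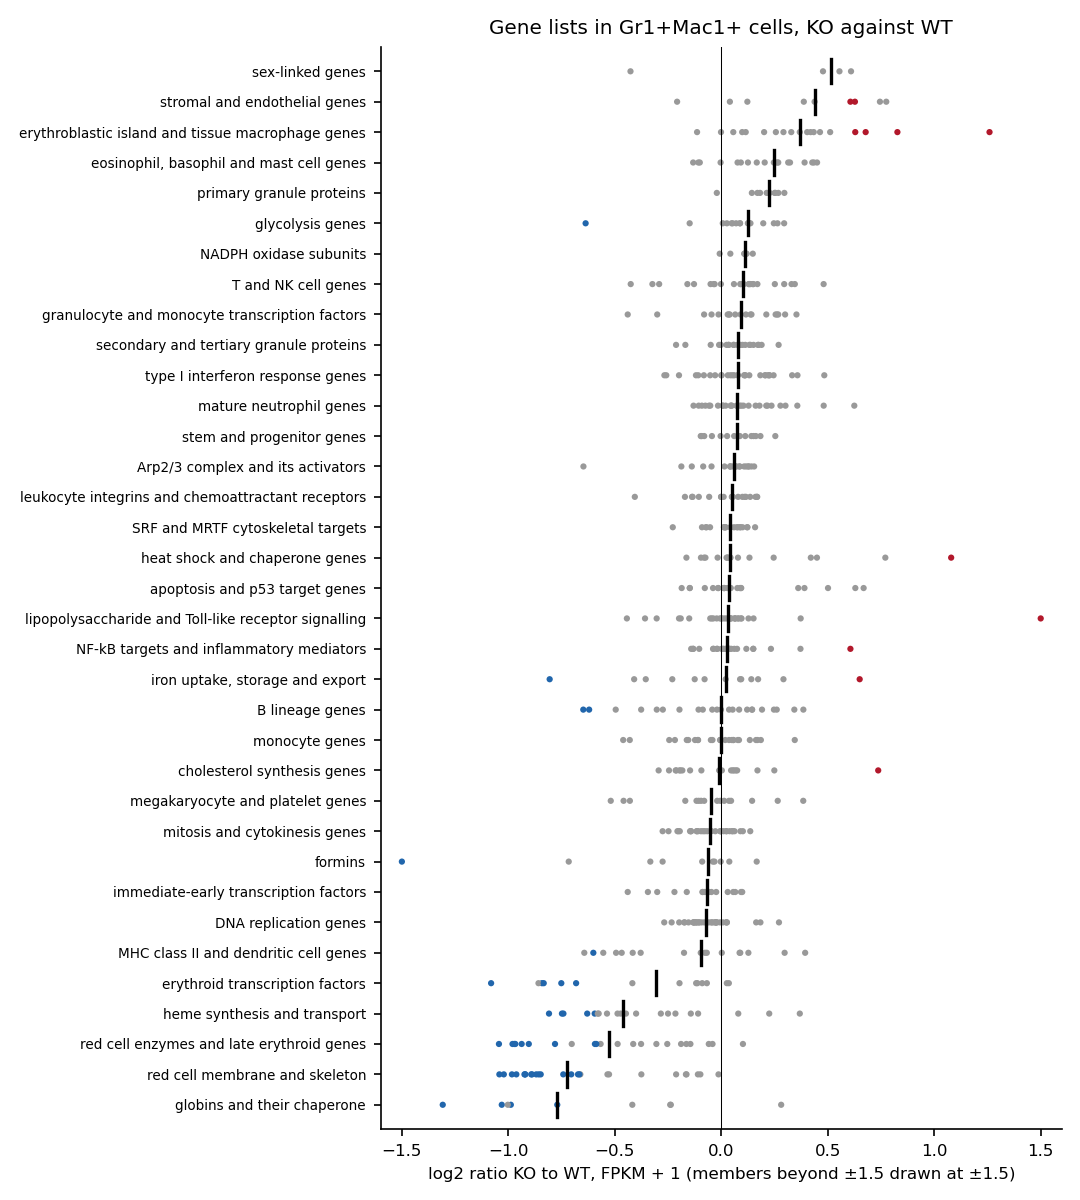
Log2 ratio of KO to WT Gr1+Mac1+ cells (horizontal axis) of every measured member of 35 gene lists, 1 row per list, with a black bar at the list median. Red dots are members called higher and blue dots members called lower by the 1.5-fold rule. The 5 erythroid lists fill the bottom rows, with medians from -0.77 to -0.31, and the macrophage list stands at 0.37.

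Sex-linked genes also differed between the pools. The 4 measured had a median of 0.52. Xist, expressed from the inactive X of females, ran from 27.1 (WT) through 18.02 (Het) to 19.9 (KO), and the Y-linked genes Eif2s3y (10.9, 13.7 and 16.4) and Ddx3y (3.48, 4.83 and 5.24) went the other way. None was called, but all 4 had KO and WT intervals apart, 3 higher and 1 lower (5.28% and 5.55% of all measured loci). The part of sex in the other results was not tested.

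Some of the largest ratios belong to loci with near-identical copies or to short loci. Rps27, a ribosomal protein gene, was listed at 5.79 in WT, 8.53 in Het and 571 in KO (6.40). The Lin- tables listed it at 4.63 (WT), 592 (Het) and 352 (KO), so WT was low in both fractions, and it was the only higher locus that was also called higher in Lin- cells. It has near-identical copies, among which fragments may be split, and the part of this in its values was not tested. The other 75 ribosomal protein genes measured had a median level of 891 in WT and 852 in KO, with Rpl26 (23.2 to 38.3) as the only call. Lgals6, from 1.14 to 7.43 (1.98), has close copies too and was near 0 in Het. Snhg9, a short host gene of a small nucleolar RNA, was listed at 28.6 in WT, with an interval from 9.53 to 47.6, and at 0 in KO. Of the measured loci, 34 were listed at 0 in KO only and 26 in WT only, and Snhg9 was the only one of them that the rule called.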

How the data were processed

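RNA-seq libraries of Gr1+Mac1+ and Lin- marrow cells, 1 for each of 3 genotypes, were read from 6 gene tables. Per the file headers, the deposited values are FPKM with a lower bound, an upper bound and a status, made by the authors on mm10. The submitters' processing notes name Cufflinks 2.0.2 and TopHat2 2.0.7. The settings and annotation used are not stated in those sources. Because each FPKM is relative to its library total, very abundant genes depress the rest. Also, fragments of near-identical copies may be split between loci.

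Libraries were compared as log2(FPKM + 1) with the rules of size in the text. Implied fragments came from the width of the intervals. Of loci with fewer than 50 implied fragments, 60.8% to 63.3% gave whole numbers within 0.05, so counts were not recovered and no count test was run. Counting SEs and intervals do not cover differences among mice. At some loci with near-identical copies the intervals are wider than counting error would give. Rps27, for example, was at 5.79 (3.25 to 8.33) in WT but at 8.53 (0 to 22.4) in Het Gr1+Mac1+ cells. Counting SEs and implied fragments are approximate at such loci. The comparison step was tested on simulated data. Of 787 entries in 36 gene lists 784 matched, 6 by an older symbol. Results of 1 list and of some single genes are not given. The named genes are Diap1, Cd14, those past the 2-fold rule, the 10 largest per direction past the 1.5-fold rule, and per list the largest calls and the most abundant members. Some members with large or small ratios, and Spire1, which is on no list, were named after their values were seen. The members and lists were chosen with earlier results of these data known. Alternatives were other pseudocounts, filters, folds and scalings. Scripts ran in Python 3.11.15 with pandas 2.3.3, numpy 2.4.6 and matplotlib 3.10.9.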

Additional observations from a re-analysis of the deposited data

Results flagged for a closer look

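Some genes and lists had opposite ratios of KO to WT in the 2 fractions, lower in Gr1+Mac1+ and higher in Lin- cells, with 1 library in each group. The difference between the fractions was not tested. Hbb-b1 had a log2 ratio of -0.77 in Gr1+Mac1+ cells and 1.04 in Lin- cells. The Hba-a2 loci had ratios of -1.03 and -0.99 in Gr1+Mac1+ cells and of 0.98 and 0.89 in Lin- cells. Epb4.2, protein 4.2 of the red cell membrane, was at -0.67 and 0.61. H2-Q7, a nonclassical class I gene with close copies, was at -0.66 and 1.86, and its Het level was 8.12 in Gr1+Mac1+ and 25.1 in Lin- cells. The median of the globin list was -0.77 in Gr1+Mac1+ and 1.04 in Lin- cells, and that of the heme list was -0.46 and 0.15.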

How the results depend on the processing

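Counts past the 2-fold rule (5 higher, 11 lower) were 3 and 3 with a pseudocount of 5, 14 and 20 with a floor of FPKM 1 or with no filter, 44 and 51 without the interval criterion, and 3 and 2 at 3-fold. The lower count was 21 with a pseudocount of 0.1, and the higher count 3 with an FPKM of at least 10. Counts past the 1.5-fold rule (29 higher, 87 lower) were 8 and 48 with a pseudocount of 5, 60 and 139 with an FPKM of at least 1, 66 and 157 with no filter, and 84 and 142 without the interval criterion. The higher count was 15 with an FPKM of at least 10. The globin median of -0.77 was -0.45 with a pseudocount of 5, -0.59 with a mean FPKM of at least 5 and -0.33 with no filter. The iron median of 0.02 reversed to -0.0289 with no filter. Under each of the rescalings, which shifted log2 ratios by -0.01 and -0.02, 15 of 16 calls past the 2-fold rule and 113 of 116 past the 1.5-fold rule were kept, and the others kept their direction. The pseudocount and the filters act on loci of low level, where depth limits what these libraries resolve. No paired analysis was possible because each genotype has 1 library in the fraction. No library could be left out for the same reason.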
